A study of Homo sapiens with 12 samples.

Results

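The 10 transcripts described here encode the whole NF-kB family and its main inhibitors: the DNA-binding subunits NFKB1, NFKB2, RELA, RELB and REL, the cytoplasmic inhibitors NFKBIA, NFKBIB and NFKBIE, and the nuclear inhibitor-like proteins NFKBIZ and NFKBID. They were chosen by family membership from the 23368 gene symbols of the count tables, and NFKBID was put in for its rise with drug at 24 h in these same libraries. The 24 h drug comparison is therefore given for these genes as a description without a test, and tests are given at 96 h, between the vehicle groups and for the change of the drug effect with time. All 10 passed the filter on low counts at both times. The cells were SUDHL6, an established human lymphoma line of the germinal-centre B-cell class. There were 4 conditions, each with 3 messenger RNA libraries: vehicle (DMSO at 0.01%) for 24 h, 200 nM GSK591 for 24 h, the same vehicle for 96 h, and 200 nM GSK591 for 96 h. GSK591 is a small-molecule inhibitor of PRMT5, an enzyme that places symmetric dimethyl marks on arginines. The series title links PRMT5 to the BCL6 repressor and to lymphoma cell survival.

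NF-kB proteins act as dimers that bind kappaB sites in DNA. RELA, RELB and REL carry activation domains, whereas NFKB1 and NFKB2 are made as long precursors (p105 and p100) whose processed forms (p50 and p52) carry none. In resting cells the classical inhibitors hold dimers in the cytoplasm until the IKK kinases mark them for destruction, and NFKBIA, NFKB2 and other family genes are themselves switched on by NF-kB, which gives the pathway its feedback. NFKBIZ (I kappa B zeta) and NFKBID (I kappa B NS) differ in that they sit in the nucleus, mainly on p50, and raise or lower the transcription of chosen targets. In germinal centre B cells the pathway is held low for most of the reaction and is switched on by CD40 and the B-cell receptor. PRMT5 is known to methylate RELA protein, an event that messenger RNA counts cannot show.

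The kappaB-like stretches of the family's own promoters are printed here because feedback onto these genes runs through such sites. They come from RefSeq windows of 250 bases before to 50 after each annotated start (GRCh38.p14), which were present for 8 of the 10 genes, in 16 windows. The consensus of the kappaB site was searched on both strands with overlapping matches counted. It was found in 10 of the 16 windows, against 5.91% of the 35116 windows in the RefSeq table. It was present in 7 of the 8 genes, and no share per gene was computed over the table. GC content was 51.3 to 79% in the 16 windows, beside a median of 58.7% over all windows. RELA was the gene with a window and without a match. The NFKBID starts are numbered by rising chromosome position. On its minus strand the first start therefore lies downstream of the second, and the window farthest upstream held no match. Capitals mark the match, or 2 overlapping matches run together. Each is written 5′ to 3′ on the strand of its gene:
NFKBID, first start, chr19:35899923-35899950 (minus strand): ggctgagcaGGAATTCCCCttgcgcggg
NFKBID, second start, chr19:35900614-35900641 (minus strand): gcgcgacccGGGGACTCCCaggcctgtg
NFKBIZ, chr3:101827758-101827785 (plus strand): ttttggtctGGGAATTTCCagtgtgcag
NFKBIA, chr14:35404812-35404839 (minus strand): gactggcttGGAAATTCCCcgagcctga
NFKBIB, chr19:38899932-38899960 (plus strand): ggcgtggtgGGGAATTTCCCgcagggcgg
NFKB1, chr4:102501301-102501328 (plus strand): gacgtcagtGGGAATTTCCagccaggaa
NFKB2, chr10:102394462-102394490 (plus strand): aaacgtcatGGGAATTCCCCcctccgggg
REL, chr2:60881518-60881546 (plus strand): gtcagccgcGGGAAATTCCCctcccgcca
NFKB1 and NFKBIZ share the same 10 capital letters, and NFKBIB holds them with 1 base more. Read on the opposite strand, NFKBIA has the same 10 letters and REL holds them with 1 base more. The printed matches began between 28 bases (NFKBIB) and 223 bases (NFKBIZ) before their start. Of the printed stretches, those of NFKBIA and NFKBIZ and the first of NFKBID overlapped no annotated exon, and the other 5 overlapped one. Both NFKBID stretches are printed, but only 1 stretch each of NFKB2 and NFKBIZ. NFKB2 held further matches that began 78, 176 and 21 bases before a start, and NFKBIZ held another at 239 bases. A match describes the sequence only, and binding was not measured.

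Total counts were 547.9 M (M, mega) in vehicle replicate 1 at 96 h and between 48.5 and 64.4 M in the other 11 libraries. The 10 genes took 0.0673 to 0.0834% of the counts. Replicates lay closer together at 24 h than at 96 h: over genes, the SD of a library's log2 level around its fellow replicates was 0.058 to 0.068 at 24 h, and at 96 h it was 0.220 in GSK591 replicate 2, 0.148 in GSK591 replicate 1, 0.140 in vehicle replicate 2 and at most 0.118 in the other 3 libraries. Results at 96 h are also given without both libraries numbered 2 where that changes them. That fit keeps GSK591 replicate 1, which lay farther from its fellows than vehicle replicate 2. Removing libraries that lie apart can narrow the spread on which p-values rest, and calls went from 40.2 to 60.5% of all genes. Its p-values and counts therefore describe only how results depend on those libraries. All 10 markers of germinal centre B cells were detected, with a summed CPM (counts per M counts of the library, after TMM scaling of library sizes) of 7699 to 9200, and all 11 markers of T cells, myeloid cells and other lineages had group means under 1 CPM. PRMT5 transcript itself did not differ with drug beyond the spread of replicates at 24 h (log2 fold change 0.00 ± 0.03 SE, adjusted p = 0.984) or at 96 h (-0.06 ± 0.05, adjusted p = 0.373). GSK591 acts on the enzyme, so this level checks nothing about the treatment.

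NFKBID was the member with the widest separation between drug and vehicle. Its level was 31.8, 30.4 and 35.9 CPM in the 3 vehicle libraries at 24 h and 45.1, 42.2 and 44.9 CPM with GSK591. At 96 h it was 34.5, 28.8 and 34.3 CPM with vehicle and 69.9, 58.4 and 67.0 CPM with GSK591. Vehicle libraries of both times thus shared one range, every treated library lay above it, and every treated library at 96 h lay above every one at 24 h. At 24 h, where the gene was selected on its rise, the log2 fold change was 0.43 ± 0.05 (SE), a 1.35-fold difference. At 96 h NFKBID was 2.02-fold higher with drug (log2 fold change 1.01 ± 0.09, adjusted p = 0.000378, edgeR quasi-likelihood test, 3 against 3 libraries). The stated reason for its selection was the 24 h rise. The members were chosen with earlier results of these data known, so the 96 h test is not independent of that choice. The 96 h value stayed between 0.93 and 1.07 under the 14 other fits tried, each of which kept it past the threshold. The effect at 96 h was 0.57 ± 0.12 larger on the log2 scale than that at 24 h, given without a test because the 24 h contrast chose the gene. In the authors' deposited table NFKBID had a log2 fold change of 0.41 at 24 h and of 1.01 at 96 h (FDR 8.33e-22 at 96 h).

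NFKBIZ, the other nuclear member, did not pass the test at 96 h, and its treated libraries were split. At 24 h it stood at 69.5, 68.5 and 68.7 CPM with vehicle and 69.3, 67.9 and 71.0 CPM with GSK591, which overlapped fully (0.01 ± 0.03). At 96 h the vehicle libraries held 83.3, 80.3 and 79.6 CPM and the GSK591 libraries 110.7, 76.7 and 100.1 CPM. GSK591 replicates 1 and 3 lay above every vehicle library and replicate 2 lay below them all, so that the log2 fold change was 0.25 ± 0.11 with an adjusted p of 0.0955. Without GSK591 replicate 2 it was 0.38 (adjusted p = 0.000474), without both libraries numbered 2 it was 0.37 (adjusted p = 2.47e-05), and in 1 fit of all 12 libraries 0.24 (adjusted p = 0.0374). In the authors' deposited table the 96 h value was 0.26 with an FDR of 0.0649.

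**Figure D1:**
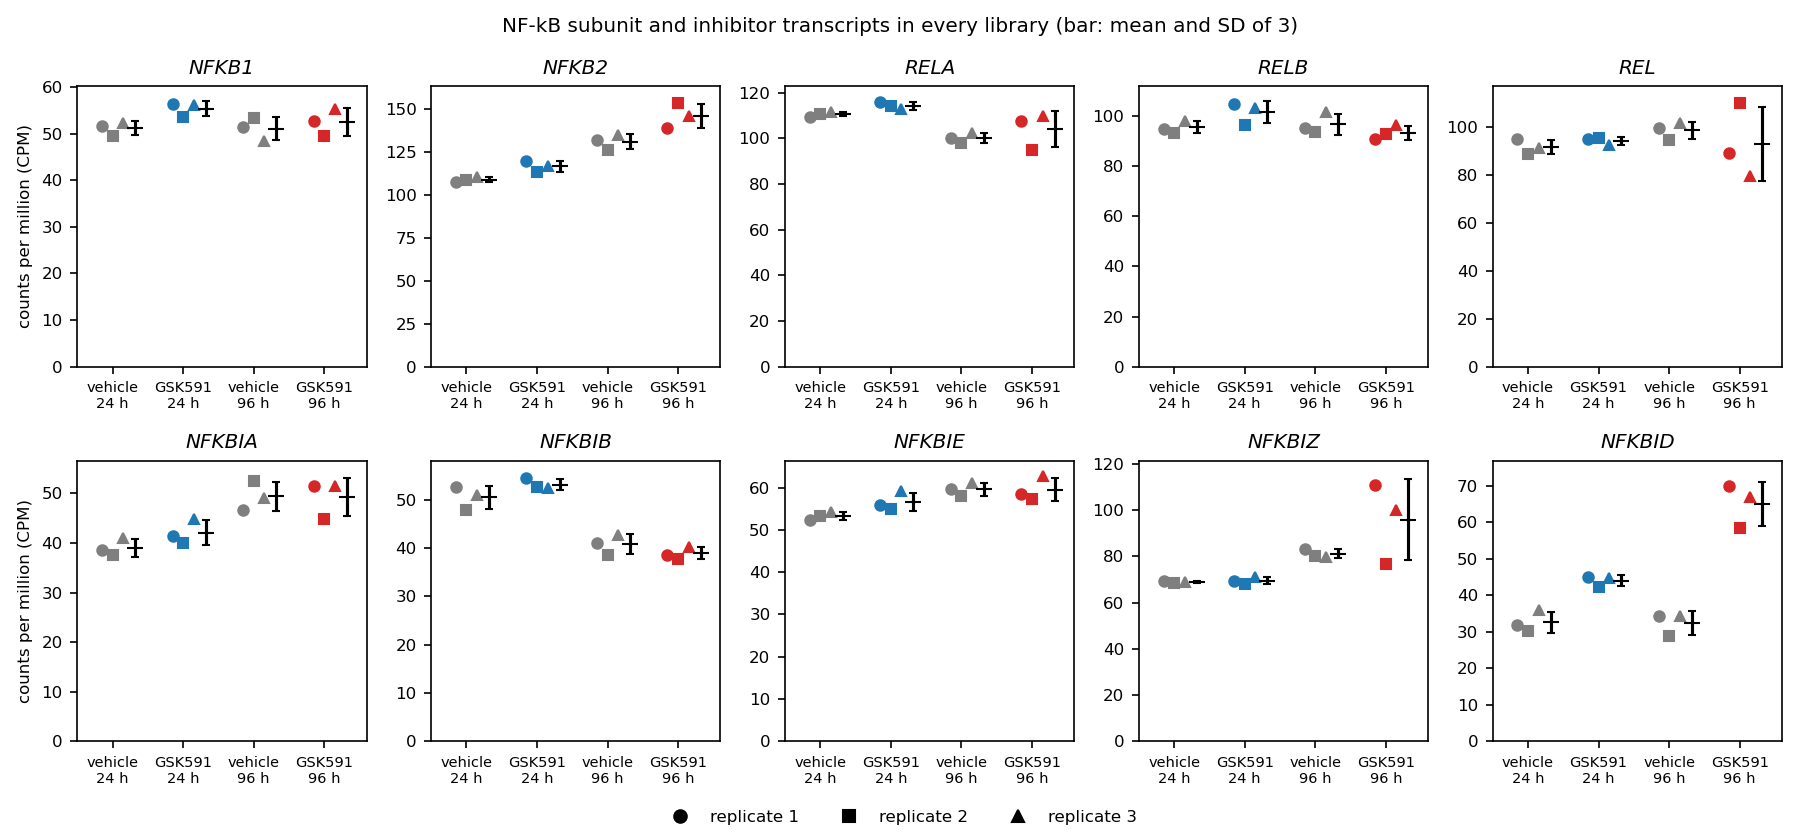
Level of each of the 10 transcripts in every library, in CPM (vertical axis, from 0), for vehicle (grey) and GSK591 at 24 h (blue) and 96 h (red). Symbols are the 3 replicates and bars the mean and SD. NFKBID with GSK591 sits at 42.2 to 45.1 CPM at 24 h and 58.4 to 69.9 CPM at 96 h, above all vehicle libraries, while NFKBIZ and REL have 1 treated library at 96 h on the far side of vehicle from the other 2.

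The cytoplasmic inhibitors showed no called drug effect at 96 h. NFKBIA, the feedback inhibitor that NF-kB itself induces, was at 46.7, 52.5 and 49.0 CPM with vehicle and 51.4, 44.8 and 51.5 CPM with GSK591 at 96 h (0.01 ± 0.07, adjusted p = 0.919). Its groups overlapped, with the lowest of the 6 libraries being GSK591 replicate 2 and the highest vehicle replicate 2. Without both of those libraries the log2 fold change was 0.11 (adjusted p = 0.0343). NFKBIB, which retains RELA and REL dimers, stood at 40.8 ± 2.07 CPM (SD, n = 3) with vehicle and 38.9 ± 1.27 CPM with GSK591 (-0.05 ± 0.06, adjusted p = 0.479). NFKBIE was at 59.6 ± 1.55 and 59.5 ± 2.80 CPM (0.01 ± 0.05, adjusted p = 0.865). At 24 h all 3 had slightly higher means with drug: NFKBIA 39.0 ± 1.84 against 42.1 ± 2.50 CPM, NFKBIB 50.5 ± 2.36 against 53.2 ± 1.14 CPM and NFKBIE 53.2 ± 0.972 against 56.6 ± 2.19 CPM. Of these, only the NFKBIE groups were free of overlap.

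NFKB2, the precursor of p52 and the defining subunit of the non-canonical arm, was the other member called higher at 96 h, by a small margin. It held 132, 126 and 135 CPM with vehicle and 139, 153 and 146 CPM with GSK591, so every treated library lay above every vehicle one. The log2 fold change was 0.17 ± 0.06, a 1.13-fold difference (adjusted p = 0.0435). Leaving out any 1 of the 6 libraries lost the call (adjusted p 0.0506 to 0.133), as did scaling by library size alone (0.0558) and testing without a filter (0.12). At 24 h its level was 107, 109 and 111 CPM with vehicle and 120, 114 and 117 CPM with drug (0.10 ± 0.03), again without overlap.

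NFKB1, the p105 precursor of p50, overlapped between drug and vehicle at 96 h, at 51.1 ± 2.52 CPM with vehicle and 52.5 ± 2.97 CPM with GSK591 (0.05 ± 0.06, adjusted p = 0.498). It was called higher at 96 h only without both libraries numbered 2 (0.11, adjusted p = 0.0455) among the 14 other fits. At 24 h it was 51.6, 49.5 and 52.3 CPM with vehicle and 56.3, 53.6 and 56.2 CPM with drug (0.11 ± 0.03), groups that did not overlap.

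The 3 subunits with activation domains were not called at 96 h. RELA, the main partner of p50 in the classical arm, was at 100.4, 97.9 and 102.5 CPM with vehicle and 107.8, 95.0 and 109.8 CPM with GSK591 (0.07 ± 0.06, adjusted p = 0.384). As with NFKBIZ, replicates 1 and 3 of the treated group lay above all vehicle libraries and replicate 2 below them, and without that library the value was 0.12 (adjusted p = 0.042). REL, the subunit that B cells hold in high amount and that is often amplified in this lymphoma type, showed the mirror pattern: 99.8, 94.6 and 101.9 CPM with vehicle and 89.3, 110.1 and 79.6 CPM with GSK591. Its log2 fold change was -0.07 ± 0.11 (adjusted p = 0.633) with all libraries and -0.23 (adjusted p = 0.0117) without GSK591 replicate 2. RELB, the partner of p52, was 96.6 ± 4.24 CPM with vehicle and 93.2 ± 2.90 CPM with GSK591 (-0.04 ± 0.05, adjusted p = 0.603). At 24 h the treated and vehicle means were 114 ± 1.69 and 111 ± 0.967 CPM for RELA, 94.5 ± 1.64 and 91.8 ± 3.09 CPM for REL and 101 ± 4.34 and 95.5 ± 2.44 CPM for RELB, and of the 3 genes only RELA had groups that did not overlap.

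Counted over the 10 genes, 2 were called higher and 0 lower at 96 h, against 20.7% of the 13514 tested genes called higher and 19.6% called lower (40.2% in either direction). NFKB2 and NFKBID, 2 of the 10, had groups that did not overlap, against 54.6% of all tested genes. The median log2 fold change of the 10 was 0.03 at 96 h, beside a median of 0.00 over all genes. Without both libraries numbered 2, 7 of the 10 were called, 6 higher (NFKB1, NFKB2, RELA, NFKBIA, NFKBIZ, NFKBID) and 1 lower (REL), while 60.5% of all genes were called in that fit. At 24 h 5 of 10 had groups that did not overlap, beside 31.9% of the 13173 tested genes. Of those genes 7.44% were called higher and 7.29% lower (14.7% in either direction). That contrast entered the choice of members, so their calls in it are not given gene by gene. Nothing is read from this count, nor from the number of members called at 24 h under other fits. The balance of higher and lower calls over all genes at 24 h was 980 to 960 with TMM scaling and 563 to 1220 with library size alone.

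**Figure D2:**
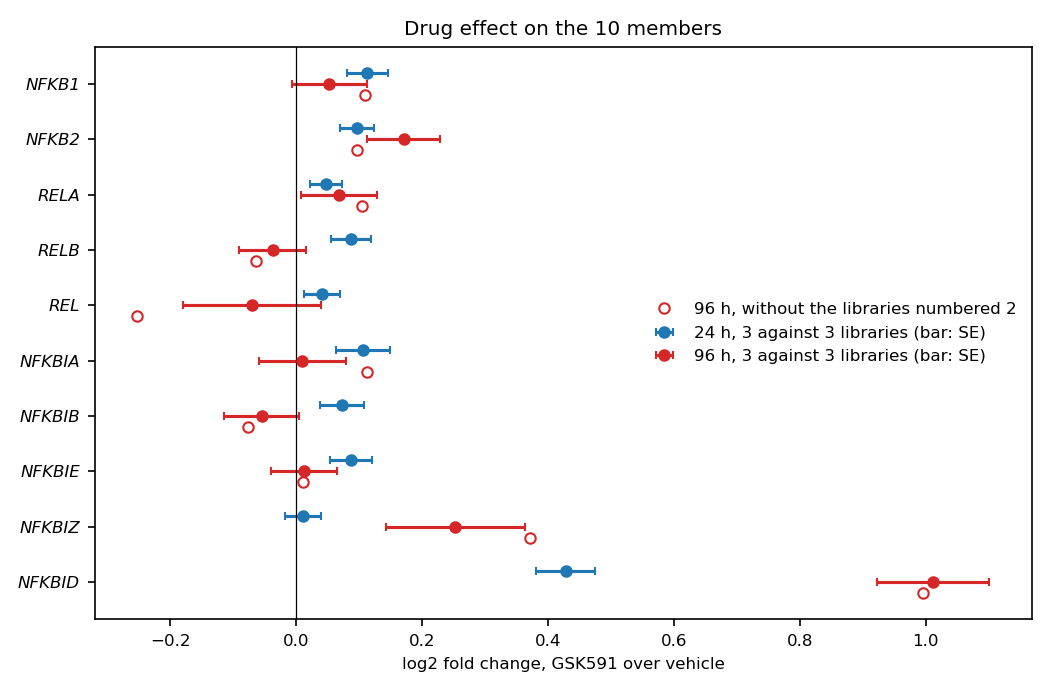
Log2 fold change of GSK591 over vehicle (horizontal axis) for the 10 genes at 24 h (blue) and 96 h (red), each from 3 against 3 libraries with bars for the standard error; open circles are the 96 h values without the libraries numbered 2. NFKBID stands at 0.43 and 1.01, with its open circle between 0.93 and 1.07, and every value of the other genes lies between -0.25 and 0.37.

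The change of the drug effect from 24 h to 96 h was tested for the 9 members other than NFKBID, and 0 of them passed in edgeR's quasi-likelihood test, as in DESeq2. At an unadjusted p under 0.05 there was 1, RELB (-0.14 ± 0.06, adjusted p = 0.126). Over all 13665 genes of that fit 24.1% passed, 11.0% with a more positive and 13.2% with a more negative effect at 96 h. NFKBIB had a difference of -0.14 ± 0.07 (adjusted p = 0.148), NFKBIZ 0.23 ± 0.13 (adjusted p = 0.211) and REL -0.13 ± 0.12 (adjusted p = 0.457). Without GSK591 replicate 2 of 96 h, NFKBIZ (0.36, adjusted p = 0.000161) and REL (-0.27, adjusted p = 0.00362) passed, and without both libraries numbered 2 RELB (-0.16, adjusted p = 0.0203) and NFKBIB (-0.16, adjusted p = 0.0254) joined them. Over all genes 5712 of 13780 passed in the first of these fits and 6022 of 13744 in the second, so passing became more frequent for genes at large.

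The vehicle groups of the 2 times differed for 6 of the 10 members. At 96 h 4 members were called higher (NFKB2, NFKBIA, NFKBIE, NFKBIZ) and 2 lower (RELA, NFKBIB), where 24.2% of 13665 genes were higher and 23.5% lower (47.7% in all, 3309 to 3207, and 4167 to 2503 with library size alone). NFKBIA went from 38.5, 37.5 and 41.1 CPM to 46.7, 52.5 and 49.0 CPM (0.34 ± 0.07, adjusted p = 0.000778). NFKB2 rose from 109 ± 1.72 to 131 ± 4.37 CPM (0.27 ± 0.04, adjusted p = 0.000187), and NFKBIE from 53.2 ± 0.972 to 59.6 ± 1.55 CPM (0.16 ± 0.04, adjusted p = 0.00842). NFKBIB fell from 50.5 ± 2.36 to 40.8 ± 2.07 CPM (-0.31 ± 0.05, adjusted p = 0.000162). Those 4 calls held under each of the 19 other fits. NFKBIZ (0.24 ± 0.09, adjusted p = 0.0459) and RELA (-0.14 ± 0.05, adjusted p = 0.0262) did not hold so well: the first was lost on leaving out any 1 vehicle library, any 1 GSK591 library of 24 h or GSK591 replicate 3 of 96 h (adjusted p 0.0539 to 0.127) and with the deep vehicle library thinned (0.0543), and the second on leaving out any 1 vehicle library of 24 h or vehicle replicate 1 or 2 of 96 h (0.0534 to 0.0674), and with library size alone (0.135). NFKB1 (0.00 ± 0.05), RELB (0.02 ± 0.04) and REL (0.11 ± 0.08, adjusted p = 0.318, 0.042 without GSK591 replicate 2 of 96 h and 0.00603 without both libraries numbered 2 of 96 h) were not called, and NFKBID stood at 32.7 ± 2.88 CPM and 32.5 ± 3.24 CPM in the 2 vehicle groups. Time in culture and whatever else differed between the 24 h and 96 h libraries cannot be told apart in this comparison, which also shares its vehicle libraries with the drug comparisons.

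Levels were set against each other per kilobase of annotated exon (GENCODE exons, GRCh38). In vehicle at 24 h RELB was highest with 41.5 ± 1.06 CPM per kb, followed by RELA with 32.6 ± 0.285, NFKB2 with 29.6 ± 0.466, NFKBIB with 23.7 ± 1.11, NFKBIE with 20.6 ± 0.377, NFKBIA with 20.5 ± 0.968, NFKBID with 16.8 ± 1.48, NFKBIZ with 16.4 ± 0.122, NFKB1 with 9.26 ± 0.270 and REL with 8.16 ± 0.275. The replicate ranges of NFKBIE and NFKBIA overlapped, as did those of NFKBID and NFKBIZ, so the order within those pairs is not resolved. With GSK591 at 96 h NFKBID held the third place, at 33.5 ± 3.09 CPM per kb, behind RELB (40.5 ± 1.26) and NFKB2 (39.7 ± 1.94) and with a range that overlapped that of RELA (30.8 ± 2.37). The low place of REL and NFKB1 goes with their long exon models, of 11255 and 5522 bases, and transcripts that end earlier than the model would be understated. For 4 members another annotated gene overlaps: RELA and AP001362.2, NFKBIB and SIRT2, NFKBID and AD000864.1, and REL with RNU4-51P and AC010733.2. The sources used here give no strand setting for the counting, so reads from such overlaps cannot be told apart.

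Across the 12 libraries, the 5 genes whose log2 levels ran closest to NFKBID, among genes with an average of at least 3 log2 CPM, were POLG (Pearson r = 0.992), ST14 (0.990), POGLUT1 (0.986), ARHGEF7 (0.986) and MEF2D (0.984). These libraries share treatment and time, so any gene that rises with drug at both times scores high, and the values describe that likeness alone. POLG, the catalytic subunit of the mitochondrial DNA polymerase, went from 94.0 ± 3.38 to 136 ± 2.73 CPM with drug at 96 h. POGLUT1, an enzyme that adds O-glucose to proteins such as Notch, went from 30.4 ± 0.420 to 50.4 ± 2.92 CPM. ST14 encodes the membrane protease matriptase, ARHGEF7 an exchange factor for small GTPases and MEF2D a transcription factor. Among the family, r with NFKBID was highest for NFKB2 (0.65) and NFKBIZ (0.64) and lowest for NFKBIB (-0.33) and REL (-0.24).

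Of 14 IKK subunits and kinases upstream of them, 5 were higher and 1 lower at 96 h (median log2 fold change 0.19), where 20.7% of all tested genes were higher and 19.6% lower. At 24 h 1 was higher (median 0.04), beside 7.44% of all genes. The count higher at 96 h was 2 on omitting vehicle 3, GSK591 1 or GSK591 3 and 7 on omitting GSK591 2. In that order, 1993 of 13711, 1794 of 13680, 2049 of 13630 and 3656 of 13618 genes were higher in those fits. IKBKB, the kinase subunit that phosphorylates the classical inhibitors, stood at 130, 126 and 129 CPM with vehicle and 188, 216 and 185 CPM with GSK591 at 96 h, a 1.55-fold rise (0.63 ± 0.07, adjusted p = 0.000683). It was also the kinase called at 24 h, from 134 ± 0.664 to 147 ± 3.05 CPM (0.13 ± 0.02, adjusted p = 0.00122), and its effect was larger at 96 h (difference 0.48 ± 0.07, adjusted p = 0.00092). MAP3K3, a kinase that can activate IKK, rose from 28.6 ± 0.261 to 40.4 ± 3.09 CPM at 96 h (0.51 ± 0.06, adjusted p = 0.00109), with 0.12 ± 0.04 at 24 h (adjusted p = 0.0871, and 0.0475 or 0.0484 without vehicle replicate 3 or GSK591 replicate 2). TANK, an adaptor of the IKK-related kinases, rose from 20.6 ± 0.522 to 25.7 ± 2.77 CPM (0.33 ± 0.08, adjusted p = 0.0125), a call lost on omitting any of 3 libraries, vehicle 3 and GSK591 1 and 3 (adjusted p 0.0509 to 0.0532). CHUK, the kinase subunit needed for NFKB2 processing, and MAP3K14, the kinase above it, were higher by 0.22 ± 0.06 and 0.21 ± 0.06 (adjusted p = 0.0139 and 0.0268), and IKBKE, an IKK-related kinase, was lower (-0.20 ± 0.05, adjusted p = 0.0189). CHUK was not called without vehicle 3 or GSK591 1 or 3, and IKBKE was not called without vehicle 1 or GSK591 1 or 3. MAP3K14 was not called on omitting any 1 library other than GSK591 2, nor without a filter. CHUK, MAP3K14 and IKBKE are named here after their values were seen.

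Of 19 receptors and adaptors, 17 were tested, and LTBR and TNFRSF1A did not pass the filter. At 96 h 2 were higher and 2 lower (median 0.07), beside 20.7% and 19.6% of all genes, and at 24 h 1 was higher (median -0.02), beside 7.44%. On omitting GSK591 2 the count higher at 96 h was 4, and on omitting any other library 1 was higher and 1 lower. Over all genes 3656 of 13618 were higher without GSK591 2. The other fits called 1794 to 2049 higher and 1644 to 1949 lower, of 13630 to 13718 tested. MALT1, a protease on the route from the B-cell receptor to IKK, stood at 73.3, 72.9 and 72.3 CPM with vehicle and 89.7, 81.3 and 85.4 CPM with GSK591 at 96 h (0.24 ± 0.05, adjusted p = 0.00655), with 0.08 ± 0.03 at 24 h (adjusted p = 0.106). BCL10, an adaptor that binds MALT1, was not called at 0.21 ± 0.10 on the log2 scale (adjusted p = 0.141), with 18.5, 18.3 and 18.5 CPM in vehicle and 22.1, 17.4 and 23.9 CPM with drug. TNFRSF13B (TACI), a receptor for the survival factors BAFF and APRIL, fell from 18.7, 20.02 and 20.4 CPM to 11.99, 15.7 and 13.5 CPM (-0.50 ± 0.10, adjusted p = 0.00627). CD40, the receptor for T-cell help, was called higher at 24 h (0.12 ± 0.04, adjusted p = 0.0355) and at 96 h, where it went from 68.1 ± 4.06 to 77.3 ± 3.99 CPM (0.19 ± 0.06, adjusted p = 0.0332). The 24 h call was lost on omitting any of 4 libraries, vehicle 1 and 2 and GSK591 1 and 3 (adjusted p 0.0754 to 0.19), and the 96 h call on omitting any of 5, vehicle 1, 2 and 3 and GSK591 1 and 3 (0.0613 to 0.109).

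Of 19 genes for the turnover of inhibitors and the editing of ubiquitin chains, 4 were higher and 3 lower at 96 h (median -0.02), so 7 of 19 were called beside 40.2% of all genes. On omitting vehicle 2 or GSK591 1 they were 2 and 1, on omitting GSK591 3 they were 2 and 2, on omitting vehicle 1 they were 3 and 1, on omitting vehicle 3 they were 3 and 2, and on omitting GSK591 2 they were 7 and 4. Over all genes 7485 of 13618 were called without GSK591 2, and 3438 to 3942 of 13630 to 13718 without any other library. CYLD, a deubiquitinase that restrains IKK, rose from 34.6 ± 2.88 to 50.1 ± 3.50 CPM (0.55 ± 0.08, adjusted p = 0.00165). The A20-binding proteins went apart: TNIP2 rose from 34.4 ± 1.83 to 46.1 ± 4.76 CPM (0.43 ± 0.08, adjusted p = 0.00399) and TNIP1 fell from 138 ± 1.80 to 118 ± 2.13 CPM (-0.21 ± 0.05, adjusted p = 0.00782). A20 itself, TNFAIP3, which NF-kB induces and which ends signalling, was at 11.8 to 13.97 CPM with vehicle and 11.5 to 12.9 CPM with drug and was not called (-0.05 ± 0.09, adjusted p = 0.676). At 24 h 1 of the 19 was called, as lower, beside 7.29% of all genes called lower and 14.7% in either direction. It was the deubiquitinase OTUD7B (-0.29 ± 0.10, adjusted p = 0.0477, from 3.97 ± 0.249 to 3.23 ± 0.294 CPM), a call that DESeq2 did not make (adjusted p = 0.124) and that was lost on omitting vehicle 1 or 2 or GSK591 1 or 3 (0.0885 to 0.217). SHARPIN, a subunit of the linear ubiquitin ligase, stood next at -0.10 ± 0.04 (adjusted p = 0.0593).

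**Figure D3:**
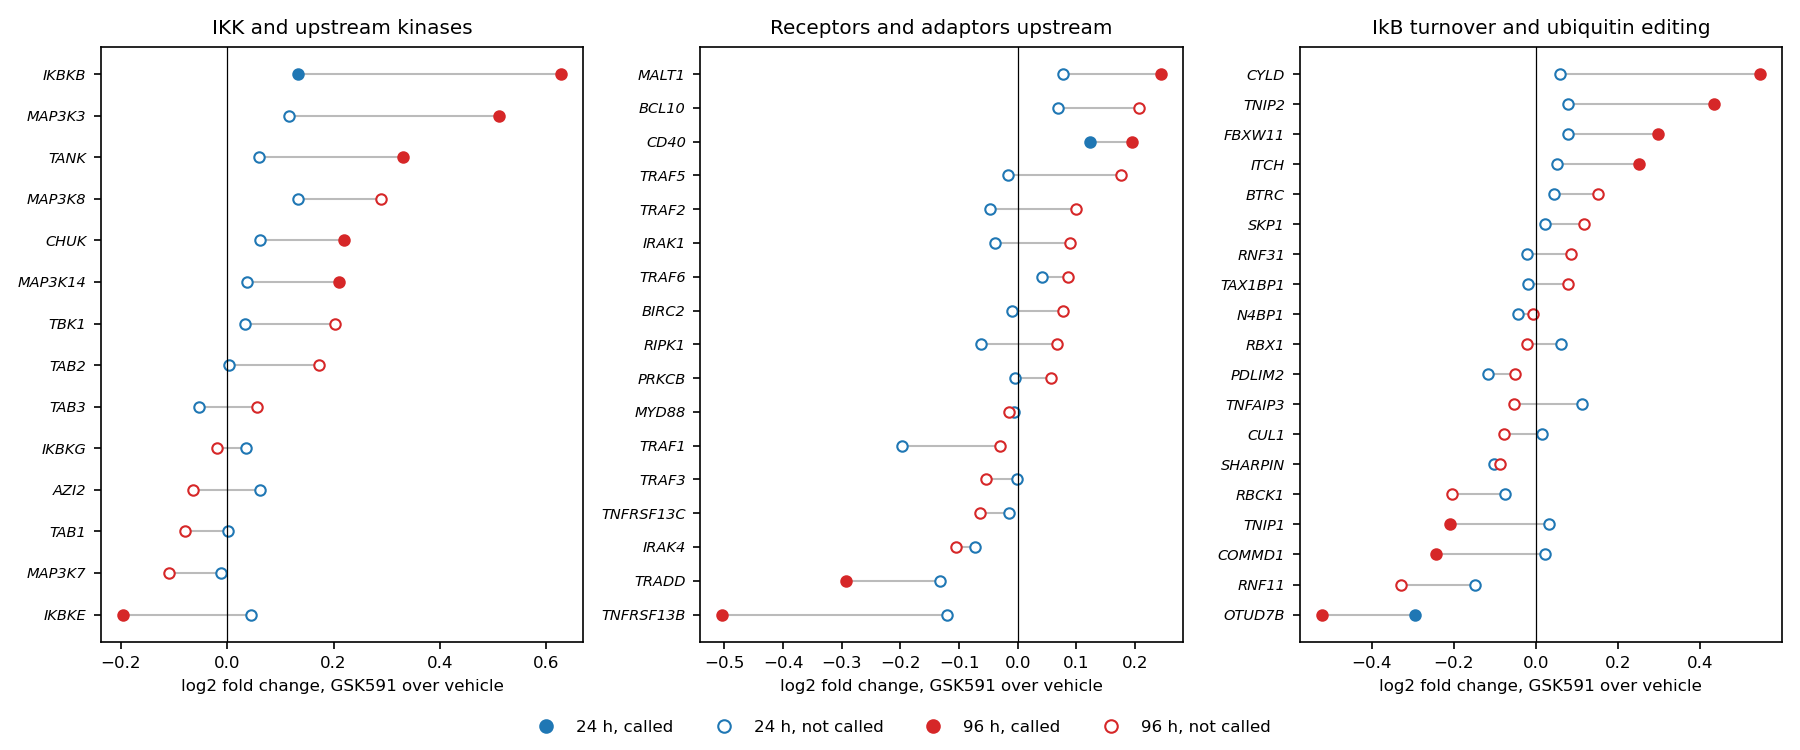
Log2 fold change of GSK591 over vehicle (horizontal axis) for tested genes upstream of the inhibitors in 3 lists, at 24 h (blue) and 96 h (red); filled points passed the adjusted threshold of 0.05 and open points did not. IKBKB (0.63), CYLD (0.55) and MAP3K3 (0.51) lie farthest to the right at 96 h, and OTUD7B (-0.52) and TNFRSF13B (-0.50) farthest to the left.

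Known NF-kB target genes, fixed as a list of 28 of which 27 were tested at 96 h and 26 at 24 h, did not move as one group. At 24 h 6 were higher and 1 lower (median 0.06), beside 7.44% and 7.29% of all genes, and at 96 h 5 were higher and 11 lower (median -0.08), beside 20.7% and 19.6%. The effect was more negative at 96 h than at 24 h for 11 and more positive for 2 (median difference -0.19), beside 13.2% and 11.0% of all genes. On omitting single libraries the 11 became 5 to 10, with 5 on omitting vehicle 1 or GSK591 3 of 24 h. Over all genes 1229 of 13842 and 1270 of 13850 passed with a more negative effect in those last fits. The count higher at 24 h was 3 on omitting vehicle 1 or 2 or with library size alone, 4 on omitting GSK591 1 and 2 on omitting GSK591 3. In that order, 683 of 13298, 540 of 13314, 563 of 13173, 469 of 13305 and 533 of 13316 genes were higher in these fits. The count lower at 96 h ranged from 6 to 13 over the other fits and the count higher from 1 to 8. The lowest pair, 1 and 6, came without vehicle replicate 3, where 1993 of all 13711 genes were higher and 1949 lower. The fit without both libraries numbered 2 had 8 higher and 12 lower, beside 4099 and 4102 of 13566 genes. With any 1 vehicle library, or GSK591 replicate 1 or 3, left out, 1 or 2 genes were higher and 6 to 8 lower. Over all genes those fits called 1794 to 2049 higher and 1644 to 1949 lower, of 13630 to 13718 tested. TNFAIP3, TRAF1 and CD40 also stand in another of these lists.

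At 24 h LTB, the membrane partner of lymphotoxin, had the smallest p of the targets, with 88.2, 88.1 and 90.4 CPM in vehicle and 111, 100.4 and 115 CPM with GSK591 (0.29 ± 0.04, adjusted p = 4.96e-05), and all treated libraries were above all vehicle ones. PIM2, a survival kinase, followed with 86.7 ± 2.14 and 96.0 ± 3.10 CPM (0.15 ± 0.03, adjusted p = 0.00248). At 96 h LTB was at 0.16 ± 0.09 (adjusted p = 0.206) and PIM2 at 0.14 ± 0.05 (adjusted p = 0.0673). TNF was called higher at 24 h (0.18 ± 0.06, adjusted p = 0.0379) and lower at 96 h (-0.42 ± 0.13, adjusted p = 0.0327), and its change of effect passed as well (-0.62 ± 0.16, adjusted p = 0.0155) and did so under each of the 19 other fits. The 24 h call was lost without vehicle 1 or GSK591 3, with library size alone, with the minimum of 5 CPM and with all 12 libraries in 1 fit, and the 96 h call was lost without vehicle 1 or 3 or GSK591 3. At 96 h its libraries overlapped, with 26.1, 18.9 and 25.5 CPM in vehicle and 19.4, 15.4 and 17.8 CPM with drug. TNF is named after its values were seen.

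At 96 h IRF4, the B-cell and plasma cell transcription factor that acts against BCL6, had the smallest p of the targets, with 56.4, 65.4 and 58.5 CPM in vehicle and 43.5, 41.7 and 43.2 CPM with GSK591, a fall of 28.0% (-0.47 ± 0.06, adjusted p = 0.0014). At 24 h it stood at 42.0 CPM in both groups, and vehicle rose between the times (0.51 ± 0.05, adjusted p = 6.07e-06). Treated cells at 96 h were thus near the 24 h level, in a pair of comparisons that share the 96 h vehicle libraries. LTA, lymphotoxin alpha, had the same course: 14.99 ± 0.747 and 15.5 ± 0.333 CPM at 24 h, then 21.9 ± 1.26 CPM with vehicle and 16.0 ± 1.10 CPM with drug at 96 h (-0.45 ± 0.08, adjusted p = 0.00303). BCL2A1, an anti-apoptotic member of the BCL2 family, was low, with 2.25, 2.36 and 2.04 CPM in vehicle and 1.20, 1.27 and 1.09 CPM with drug (-0.89 ± 0.14, adjusted p = 0.00252). BIRC3, an abundant and direct target, was called higher at both times, at 250 ± 2.89 and 272 ± 1.75 CPM at 96 h (0.14 ± 0.05, adjusted p = 0.0401), and is named after its values were seen. The 96 h call was lost without any 1 of the vehicle libraries or GSK591 1 or 3 and without a filter, and the 24 h call without vehicle 2 or GSK591 1 or 3 and with all 12 libraries in 1 fit. The largest change in the list, SDC4 (2.23 ± 0.39), rests on a gene at 0.0928 ± 0.0459 CPM in vehicle and 0.522 ± 0.196 CPM with drug. The largest fall, EBI3 (-1.09 ± 0.34), likewise rests on 0.250 ± 0.0554 CPM in vehicle and 0.112 ± 0.0377 CPM with drug.

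**Figure D4:**
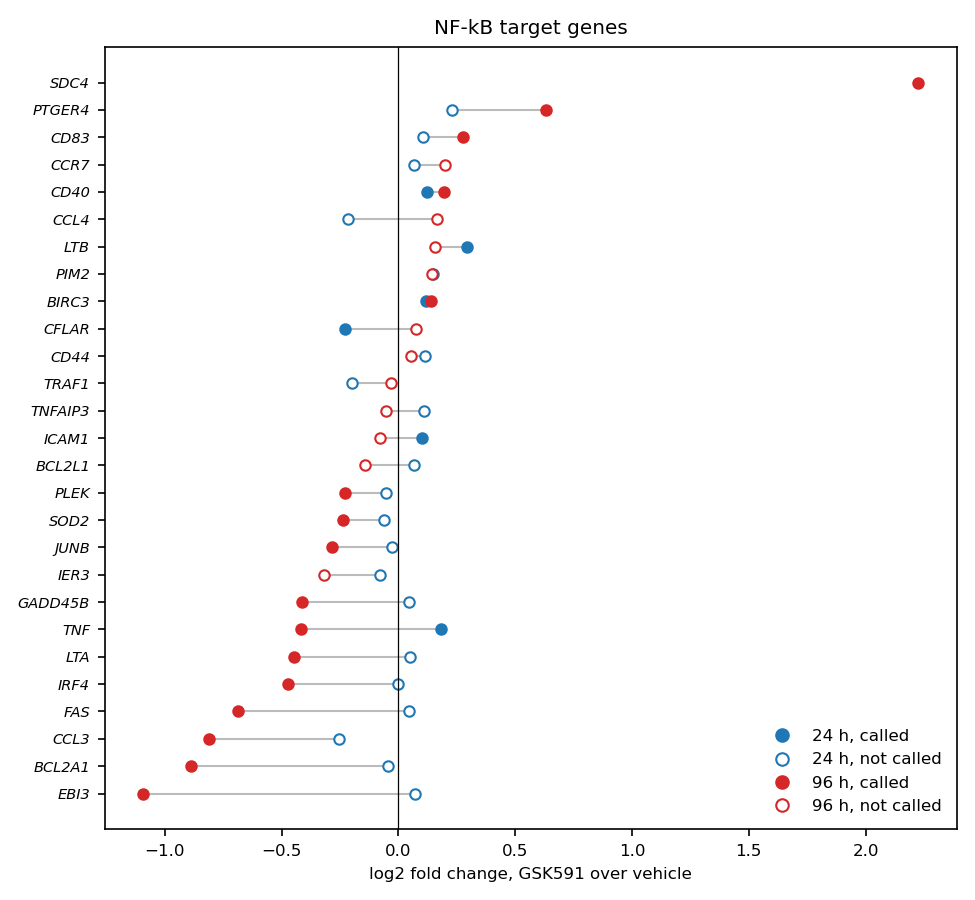
Log2 fold change of GSK591 over vehicle (horizontal axis) for NF-kB target genes at 24 h (blue) and 96 h (red), ordered by the 96 h value; filled points passed the adjusted threshold of 0.05. At 96 h 11 genes are called lower, among them EBI3, BCL2A1 and IRF4, and 5 higher, among them SDC4 and BIRC3. EBI3 and SDC4 had group means under 1 CPM.

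These are levels in bulk RNA, in which fewer cells expressing a gene and less RNA per cell cannot be told apart. Among the 11 markers of other cell types, the summed level was 0.384 to 0.551 CPM in vehicle at 24 h, 0.499 to 0.556 CPM with drug at 24 h, 0.387 to 1.12 CPM in vehicle at 96 h and 1.43 to 2.70 CPM with drug at 96 h. One of them, the monocyte marker CD14, was called higher with drug at 96 h, at 0.272 ± 0.132 CPM in vehicle and 0.864 ± 0.301 CPM with drug (1.64 ± 0.35, adjusted p = 0.00751). Its part in the results above was not tested.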

How the data were processed

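The authors deposited raw read counts per gene symbol, 1 table per time with 6 libraries each, and a table per time of log2 fold changes and p-values (with adjusted values), per the file headers. STAR, HTSeq, edgeR and the build hg19 (GRCh37) are named in the submitters' processing notes, and the sources used here give neither their versions nor the strand setting. Nothing in the labels says that the 3 replicates were separate cultures, so p-values measure the spread between libraries, which may be technical. Replicate pairs differed beyond sampling noise (chi-square per degree of freedom 2.26 to 41.9), and all 12 libraries were kept.

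Counts were fitted with edgeR 4.0.16 (R 4.3.3): filterByExpr, TMM scaling and the two-sided quasi-likelihood test over all genes, 1 fit per time and 1 fit of 12 libraries for comparisons across times. "Called" means a Benjamini-Hochberg adjusted p below 0.05. Each SE is the log2 fold change over the square root of its F statistic. The script was tested on simulated data. Alternatives were DESeq2 1.42.0, other scaling and filters, a replicate block, other library sets and single libraries left out.

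The members and gene lists were chosen with earlier results of these data known. Named by rule beyond the 10 are, per list, the 3 genes with the smallest p at 96 h and the 2 at 24 h. The 5 genes closest to NFKBID and PRMT5 are also named by rule. Other genes named as examples, among them BCL10, TNFAIP3, SDC4, EBI3 and CD14, were picked after their values were seen. From the list of receptors and adaptors 1 gene is not reported here and is in none of its counts. Promoter sequences are RefSeq's on another build than the counts.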

Additional observations from a re-analysis of the deposited data

How the results depend on the processing

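NFKBID, IKBKB, MAP3K3, MALT1, CYLD, TNIP1, TNIP2, TNFRSF13B, IRF4, BCL2A1 and LTA kept their direction and their call at 96 h under every alternative that gave a value. Counts moved more. With all 12 libraries in 1 fit 29 genes were called at 24 h, in place of 1940. IKBKB, LTB and PIM2 at 24 h kept their call under every alternative but that fit (adjusted p = 0.315, 0.163 and 0.231). Leaving out 1 library gave 980 to 2208 genes and 1 to 6 members at 24 h. The 24 h contrast entered the choice of members, so this range of members describes dependence on the libraries and is no test. With 1 library left out, 3438 to 7485 genes and 1 to 4 members were called at 96 h. For the change of effect they were 1991 to 5712 genes and 0 to 2 members. At 96 h 1 member was called with library size alone, and 1 without a filter. Without both libraries numbered 2, 8201 genes and 7 members were called at 96 h, and 6022 genes and 4 members for the change of effect. The cause was not tested.

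Values near 0 changed sign. At 96 h NFKBIA was -0.025 without a filter, -0.0028 with 12 libraries in 1 fit and -0.033 to 0.064 with 1 library left out. NFKBIE was -0.022, -0.0013 and -0.020 to 0.026 under the same 3 settings. REL ran from -0.23 to 0.035 with 1 library left out. For the change of effect NFKB2 was -0.013 without both libraries numbered 2. RELA was -0.015 without a filter, -0.0059 with the deep library thinned and -0.033 to 0.069 with 1 library left out. For vehicle over time NFKB1 was 0.055 with library size alone, 0.022 with a minimum of 5 CPM in 3 samples and -0.033 to 0.030 with 1 library left out. With 1 library left out RELB ran from -0.023 to 0.037. NFKBID was 0.055 with library size alone, 0.020 with that minimum, 0.071 without both libraries numbered 2, and -0.055 to 0.071 with 1 library left out.

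The shared replicate numbers showed as pairs only in part, and the main fits used no pairing. Libraries numbered 2 correlated best with each other at both times, as did those numbered 1 at 96 h. Deviations of same-numbered libraries correlated at 0.08, 0.48 and 0.07 at 24 h and 0.60, 0.37 and 0.05 at 96 h, and not every library correlated best with its own number. The replicate block gave 2811 called genes at 24 h, 6293 at 96 h, 4321 for the change of effect and 7043 for vehicle over time, and under it NFKBIZ at 96 h was 0.24 (adjusted p = 0.0414).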
